A study of Mus musculus with 20 samples.

Results

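A set of 30 genes that mark macrophages and dendritic cells was followed in RNA-seq libraries of mouse pancreatic islets, out of 26211 genes in the deposited table of normalized read counts. The genes were taken by symbol from a list of myeloid markers, and all 30 were in the table. The libraries came from the picked islets of mice lacking P2Y14 (10 libraries) and of wild-type mice (10 libraries), both labelled with the strain C57BL/6 x 129S6. All islets were released by Liberase digestion of the pancreas, picked under a stereomicroscope and kept overnight in culture with serum before RNA was taken, so both groups share that culture step. The labels give no age, no sex and no breeding scheme for the wild-type mice. They also do not state that the libraries were made from separate animals, so a p-value here reflects only how far these samples spread, part of which may be technical. P2Y14, the product of P2ry14, is a cell surface receptor that responds to UDP-glucose and related nucleotide sugars.

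Islets hold a resident population of macrophages that lie against blood vessels and endocrine cells, take up material released by beta cells and present it on MHC class II molecules. The C1q chains start the classical complement pathway, and lysosomal proteases cut ingested protein. Activating Fc receptors signal through the ITAM chain Fcer1g, and TREM2 and other myeloid receptors through the ITAM adaptor Tyrobp. The class II alpha and beta chains are loaded with peptide after proteases that include cathepsin S have cut away the invariant chain Cd74. Dendritic cells share most of these genes, and B cells share the class II genes.

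Several of the genes encode chains of the same complex, or are close copies, and their levels are compared pair by pair further on. The 250 bases before the RefSeq start site (build GRCm38.p6) of 6 such genes are printed for that reason, 5′ to 3′ on the strand of the gene. H2-Aa, the class II alpha chain, lies on the minus strand with this window at chr17:34287824-34288073, and H2-Eb1, a class II beta chain, lies on the plus strand with it at chr17:34305617-34305866. In these 2 sequences capitals mark CCAAT on either strand (ATTGG where it is reversed) and, in H2-Eb1, a match to AGCAAC, letters found in the X box of class II promoters.
H2-Aa: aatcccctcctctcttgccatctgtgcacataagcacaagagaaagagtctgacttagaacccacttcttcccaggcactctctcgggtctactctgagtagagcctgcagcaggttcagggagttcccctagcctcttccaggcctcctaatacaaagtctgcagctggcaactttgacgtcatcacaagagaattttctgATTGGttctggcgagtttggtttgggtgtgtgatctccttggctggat
H2-Eb1: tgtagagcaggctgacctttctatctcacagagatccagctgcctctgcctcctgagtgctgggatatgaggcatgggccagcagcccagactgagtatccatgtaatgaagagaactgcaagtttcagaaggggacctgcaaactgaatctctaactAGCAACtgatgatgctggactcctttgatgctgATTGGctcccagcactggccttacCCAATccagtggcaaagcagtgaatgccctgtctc
The X box is known to be bound by RFX proteins, and a reversed CCAAT near it, called the Y box, by NF-Y. The reversed CCAAT began at base -48 from the start site in H2-Aa and at -59 in H2-Eb1, and the AGCAAC of H2-Eb1 began at -92. The next 4 windows belong to C1qb (chr4:136886201-136886450) and C1qc (chr4:136892915-136893164), neighbouring genes for chains of C1q, and to the lysozyme genes Lyz1 (chr10:117292869-117293118) and Lyz2 (chr10:117282273-117282522), all on the minus strand. Here capitals mark GGAAGT on either strand (ACTTCC where it is reversed), a core of sites for ETS factors, the family of the myeloid factor PU.1.
C1qb: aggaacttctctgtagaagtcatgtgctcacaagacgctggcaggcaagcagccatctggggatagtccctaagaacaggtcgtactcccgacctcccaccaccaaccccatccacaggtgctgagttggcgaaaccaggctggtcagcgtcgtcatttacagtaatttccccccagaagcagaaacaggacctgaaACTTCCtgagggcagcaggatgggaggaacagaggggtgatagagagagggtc
C1qc: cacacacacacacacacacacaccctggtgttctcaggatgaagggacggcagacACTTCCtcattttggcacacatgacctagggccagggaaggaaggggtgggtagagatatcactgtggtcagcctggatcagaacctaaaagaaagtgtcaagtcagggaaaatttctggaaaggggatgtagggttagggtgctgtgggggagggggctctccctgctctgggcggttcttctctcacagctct
Lyz1: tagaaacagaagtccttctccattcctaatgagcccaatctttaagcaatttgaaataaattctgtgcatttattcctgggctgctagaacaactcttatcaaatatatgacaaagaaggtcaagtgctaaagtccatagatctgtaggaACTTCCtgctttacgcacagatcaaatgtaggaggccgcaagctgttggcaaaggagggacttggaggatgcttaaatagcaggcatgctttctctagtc
Lyz2: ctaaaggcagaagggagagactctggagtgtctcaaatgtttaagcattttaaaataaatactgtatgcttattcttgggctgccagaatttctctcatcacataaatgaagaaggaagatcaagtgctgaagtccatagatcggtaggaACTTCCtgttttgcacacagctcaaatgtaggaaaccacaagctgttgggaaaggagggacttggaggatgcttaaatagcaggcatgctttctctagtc
In both lysozyme genes the match began at base -100, and the 2 windows were identical at 205 of 240 aligned bases (85.4%).

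A promoter entry was found for 23 of the 30 genes, in 25 windows, and none for C1qa, Csf1r, Adgre1, Cd14, Tyrobp, Cd74 and H2-Ab1. On either strand CCAAT was in 12 of the 25 windows (48%) and in 33.8% of all 32851 windows of that length. GAGGAA was in 12 windows (48%) against 23.3% of all. GGAAGT, which can overlap GAGGAA, was in 10 (40%) against 19.7% of all. AGCAAC was in 5 windows (20%), those of H2-Eb1, Cd163, Itgax, Cd68 and Mpeg1, against 12.2% of all. These are matches of letters and not measured binding sites.

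Between 34520628 and 199847246 reads fell on genes in a library (median 92323083 in knockout, 105776893 in wild-type). P2ry14 itself was at 51.2 ± 31.4 in knockout against 151 ± 67.4 in wild-type libraries (normalized read count, SD, n = 10 each), with 0 in knockout replicate 5 and 113.5 in knockout replicate 2, above 5 of the wild-type libraries. Its log2 fold change was -1.97 (limma, adjusted p = 0.244, SE 0.59). The count models put it at -1.57 (edgeR, adjusted p = 0.179) and -1.56 (DESeq2, adjusted p = 0.0144), so DESeq2 called it. With 1 library left out the limma adjusted p ran from 0.0283 to 0.381, and without knockout replicate 5 the log2 fold change was -1.39. Acinar cells, the enzyme-making cells around the islets, gave 21.2% ± 8.45 of reads in knockout and 19.9% ± 8.18 in wild-type (SD, n = 10 each), as the share of 20 acinar markers.

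Some libraries stood apart in the macrophage and dendritic cell genes as a whole. For each library the deviation of every gene from its own mean over the 20 libraries was taken on the log2(value + 1) scale, and the median over the 30 genes was used as the level of that library. Wild-type library 19 was lowest at -1.44 and had the lowest value of all 20 libraries in 10 of the genes. Wild-type library 15, at -0.58, and knockout replicate 2, at -0.54, came next. Knockout replicate 10 was highest at 1.26, stood above the gene's own mean in 29 of 30 genes and had the highest value of all in 13. Wild-type library 14 followed at 0.90 and knockout replicate 4 at 0.86.

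**Figure D1:**
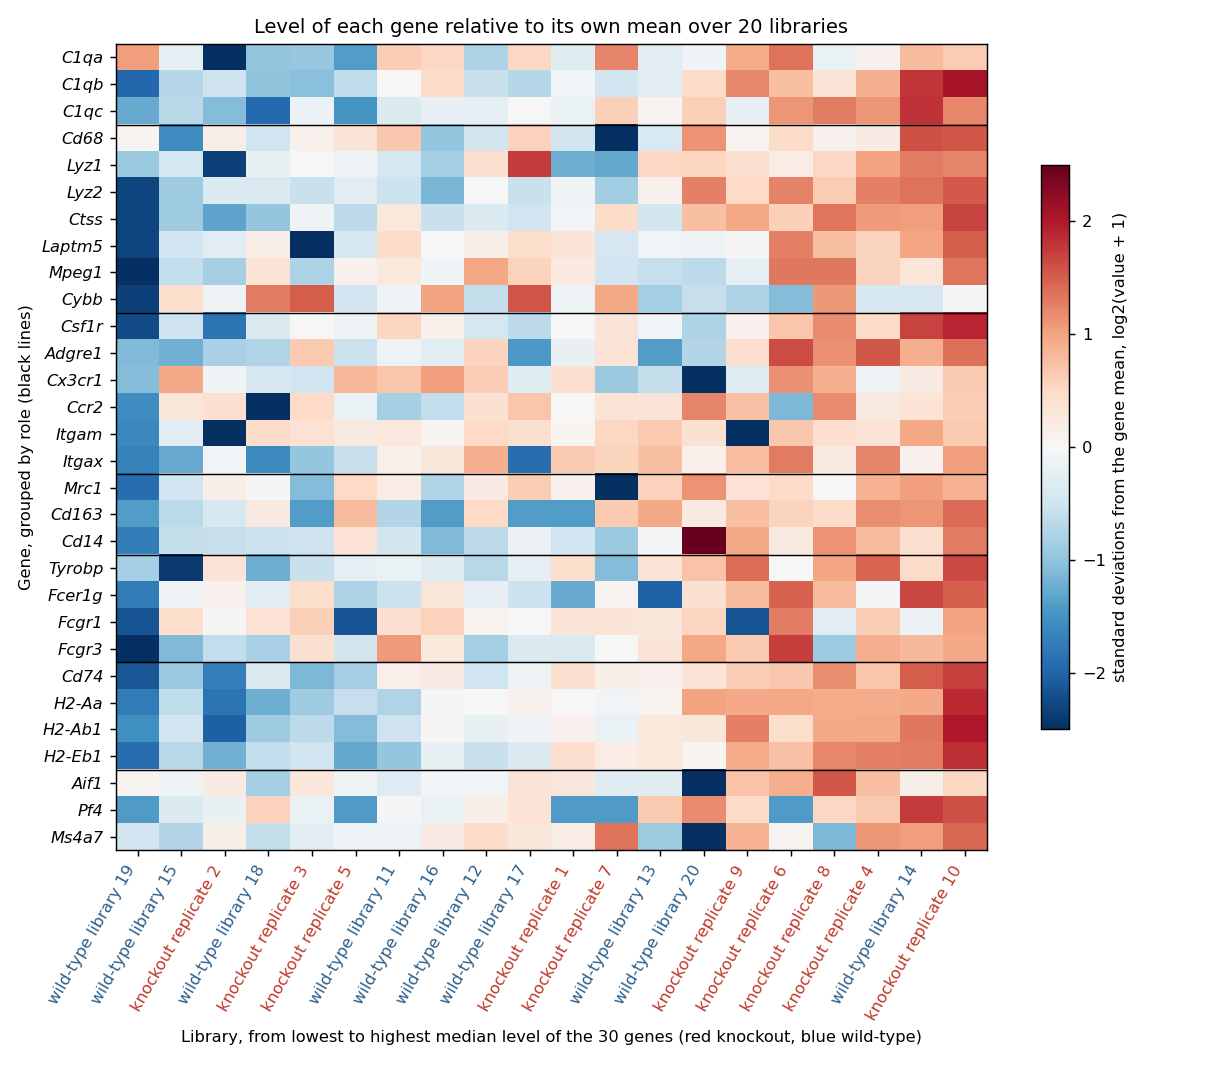
Level of each of the 30 genes in each of the 20 libraries, in standard deviations from the mean of that gene on the log2(value + 1) scale; values beyond the ends of the colour scale take the end colour. Libraries run from the lowest median level (wild-type library 19, at the left) to the highest (knockout replicate 10, at the right), and both genotypes occur at both ends.

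Thus both genotypes had high and low libraries. The level ran from -0.54 to 1.26 (median 0.33) in knockout, with 6 of 10 libraries above 0, and from -1.44 to 0.90 (median -0.06) in wild-type, with 3 of 10 above 0. Summed over the 30 genes, the normalized read count was 25396 ± 11519 in knockout and 20018 ± 8034 in wild-type (SD, n = 10 each), and the ranges of 9939 to 48312 and 8662 to 39028 overlapped over most of their length. In whole islets, fewer macrophages and less of these RNAs per macrophage cannot be told apart.

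The first question was whether loss of P2Y14 went with a change in any of these genes. None of the 30 passed an adjusted p of 0.05 in limma, where 0.28% of the 17482 genes tested passed (49 genes, of which 28 were higher in knockout and 21 lower). Neither edgeR nor DESeq2 on the recovered reads, nor the rank sum test, called any of them. At an unadjusted p under 0.05, limma gave 3 genes, all higher in knockout (Adgre1, Tyrobp and Aif1), and no gene lower. The background was 8.94% in either direction, close to their share, with 4.31% of all genes tested higher and 4.63% lower. At that unadjusted threshold edgeR also gave 3, DESeq2 5 and the rank sum test 2. The share of all genes tested was taken for limma only, so these 3 counts have no background to be read against. The lowest adjusted p was 0.318 in limma and 0.148 in DESeq2, both for Adgre1.

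The fold changes leaned to one side. The log2 fold change was positive in 23 of the 30 genes and negative in 7, whereas 49.6% of all genes tested were positive. Its median was 0.37 over the 30 genes and -0.002 over all genes tested. The genes vary together from library to library, so their signs are not independent of each other. Without wild-type library 19 the median was 0.23 with 21 genes positive, and without knockout replicate 10 it was 0.27 with 22 positive. With the acinar share as a covariate it was 0.35. A lean to positive values was not particular to the set, since 18 of 20 acinar and 7 of 10 mesenchymal markers were also positive. Of the endothelial markers 5 of 10 were positive, and of the islet endocrine markers 3 of 10. In every one of the 30 genes the values of the 2 genotypes overlapped, and groups that did not overlap were found in 0.0343% of all genes tested.

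**Figure D2:**
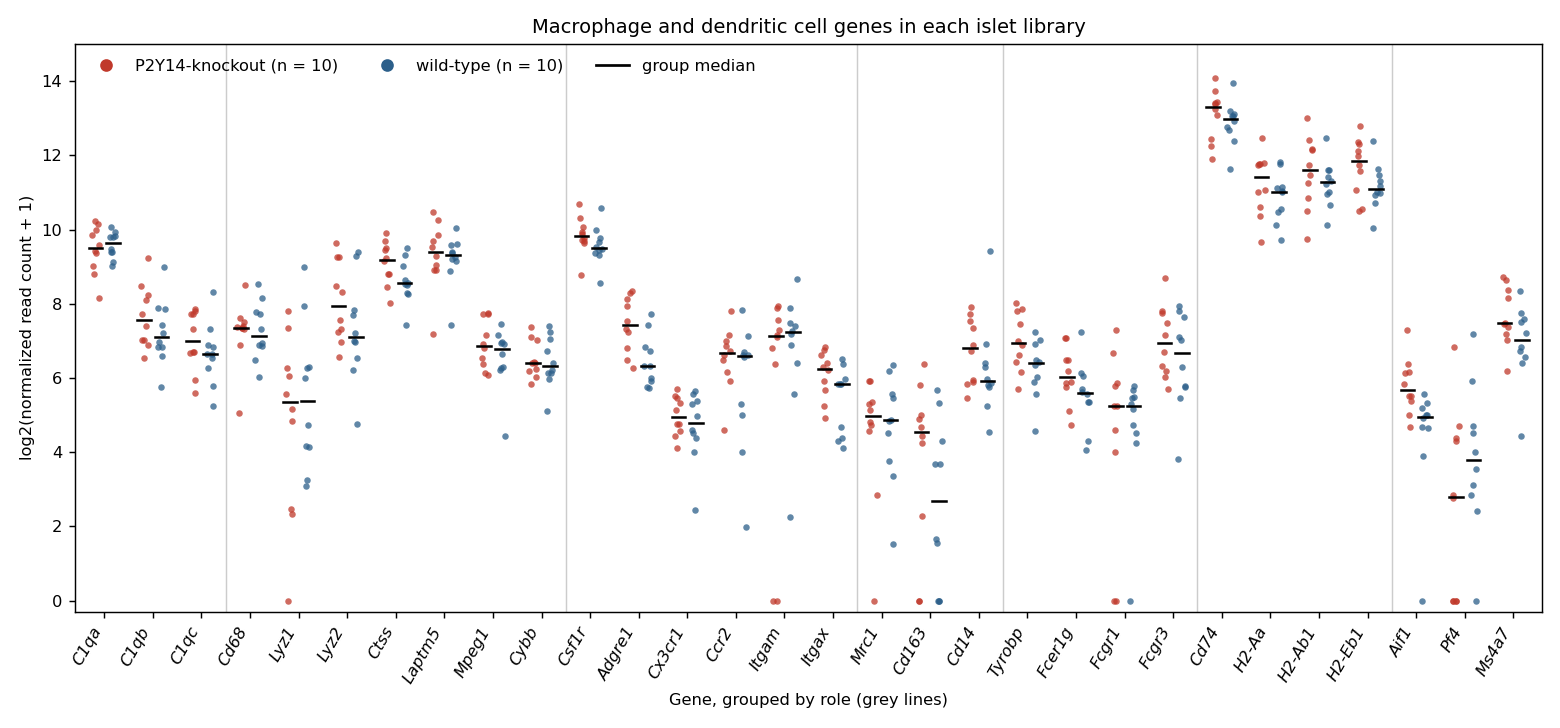
Normalized read count of each gene in each library on the log2(value + 1) scale, with knockout in red, wild-type in blue (n = 10 each) and a black bar at the group median. In each of the 30 genes the points of the 2 genotypes overlap, and the points on the 0 line are libraries without a read.

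The complement C1q chains had log2 fold changes of -0.12 to 0.43, and none of the 3 passed. C1qa (ENSMUSG00000036887, chromosome 4), the A chain, ranged from 285 to 1193 (median 727) in knockout and from 515 to 1064 (median 798) in wild-type. The wild-type libraries lay inside the knockout range, and the log2 fold change was -0.12 (adjusted p = 0.90, SE 0.22). For C1qb (ENSMUSG00000036905, chromosome 4), the B chain, knockout libraries ran from 92.2 to 598 (median 189) and wild-type from 53.2 to 508 (median 136). Its top value in each group, in knockout replicate 10 and wild-type library 14, stood well above the next, and the log2 fold change was 0.43 (adjusted p = 0.753, SE 0.36). C1qc (ENSMUSG00000036896, chromosome 4), the C chain, ran from 47.7 to 233 (median 131) in knockout and from 36.7 to 318 (median 99.1) in wild-type, for a log2 fold change of 0.36 (adjusted p = 0.793, SE 0.35).

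C1q is built from equal numbers of the 3 chains, but the reads were not spread evenly. C1qa gave 52.9% to 79.7% of the summed reads of the 3 genes in knockout (median 70.1%) and 54.1% to 90.8% in wild-type (median 75.2%). The highest share was in wild-type library 19, where C1qb was at 53.2 while C1qa was at 1064, the highest wild-type value. That library, the lowest of all 20 in 10 of the 30 genes, was thus high in C1qa.

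Among the 7 genes of lysosomes and bacterial killing, 5 had a positive and 2 a negative log2 fold change, and none passed. Ctss (ENSMUSG00000038642, chromosome 3) encodes cathepsin S, which cuts the invariant chain. Its normalized read count ran from 260.1 to 957 (median 582) in knockout and from 169.8 to 724 (median 375) in wild-type. Of the 10 knockout libraries, 8 lay above the wild-type median and 3 above every wild-type library. The means were 588 ± 219 and 418 ± 165 (SD, n = 10 each), and the log2 fold change was 0.50 (adjusted p = 0.581, SE 0.25). Lyz2 (ENSMUSG00000069516, chromosome 10), the lysozyme of macrophages, ran from 93.6 to 795 (median 252) in knockout and from 26.1 to 674 (median 136) in wild-type. Its span over the 20 libraries was 30.4-fold, and the log2 fold change of 0.78 (adjusted p = 0.681, SE 0.51) lay within that spread.

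Lyz1 (ENSMUSG00000069515, chromosome 10), the lysozyme known from Paneth cells, had no read in knockout replicate 2, which at the depth of that library allows a value of up to 2.91. It reached 223 in knockout (median 40.4) and ran from 7.47 to 508 (median 44.3) in wild-type. The log2 fold change was -0.70 (adjusted p = 0.848, SE 0.92), and it was -0.17 without knockout replicate 2. As a share of the Lyz1 and Lyz2 reads together, Lyz1 made 0% to 21.9% in knockout (median 16.0%) and 10.4% to 80.3% in wild-type (median 18.9%). The 80.3% came from wild-type library 17. The transcripts of the 2 genes were identical at 96.0% of 1262 aligned bases, and 16.1% of the 50-base windows of Lyz1 also occur in Lyz2, so the split between them is uncertain where reads fit both.

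The other 4 genes of this role had log2 fold changes of -0.03 to 0.39. Cd68 (ENSMUSG00000018774, chromosome 11), a lysosomal membrane protein of macrophages, was at 169.9 ± 80.7 in knockout against 175 ± 95.6 in wild-type (SD, n = 10 each), for a log2 fold change of -0.03 (adjusted p = 0.988, SE 0.35). Cybb (ENSMUSG00000015340, chromosome X), the catalytic chain of the phagocyte NADPH oxidase, was at 95.3 ± 35.6 and 94.6 ± 42.7, for a log2 fold change of 0.07 (adjusted p = 0.959, SE 0.26). Laptm5 (ENSMUSG00000028581, chromosome 4), a lysosomal membrane protein of blood cells, was at 737 ± 377 and 633 ± 227. Its knockout values were spread from 145 to 1408 and the wild-type values from 169.8 to 1044, so neither end belonged to wild-type, and the log2 fold change was 0.12 (adjusted p = 0.939, SE 0.34). Mpeg1 (ENSMUSG00000046805, chromosome 19), the pore-forming perforin-2, was at 131 ± 59.6 and 103 ± 43.3, for a log2 fold change of 0.39 (adjusted p = 0.749, SE 0.32). In 4 of these 7 genes (Lyz2, Ctss, Mpeg1 and Cybb) the lowest of all 20 values was that of wild-type library 19.

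The growth factor, chemokine and adhesion receptors held the gene with the lowest adjusted p. Adgre1 (ENSMUSG00000004730, chromosome 17), which encodes the macrophage surface protein F4/80, had normalized read counts of 110, 75.7, 183, 309, 89.2, 324, 151, 243, 157 and 281 in knockout replicates 1 to 10. The wild-type libraries 11 to 20 had 114, 172, 53.5, 210.3, 59.8, 105, 52.0, 78.3, 63.5 and 79.7. In 9 of 10 knockout libraries the value lay above the wild-type median, and in 4 it lay above every wild-type library, while 4 wild-type libraries lay below every knockout library. The means were 192 ± 91.5 and 98.8 ± 53.7 (SD, n = 10 each), a ratio of 1.95, and the log2 fold change was 0.95 (adjusted p = 0.318, SE 0.31). Leaving out any 1 library kept it between 0.85 and 1.09.

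Csf1r (ENSMUSG00000024621, chromosome 18), the receptor for the growth factors CSF1 and IL-34 on which tissue macrophages depend, had a smaller log2 fold change than Adgre1. It ran from 439 to 1640.0 (median 901) in knockout and from 377 to 1522 (median 724) in wild-type, with means of 967 ± 318 and 804 ± 302 (SD, n = 10 each). In 9 of 10 knockout libraries Csf1r was above the wild-type median, but the shift was small against the spread, at a log2 fold change of 0.28 (adjusted p = 0.724, SE 0.21). Its ratio of means of 1.20 compares with the 1.95 of Adgre1, and the difference between these 2 ratios was not tested.

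Itgax (ENSMUSG00000030789, chromosome 7), the integrin CD11c of dendritic cells and of islet macrophages, ran from 29.2 to 113 (median 75.1) in knockout and from 16.4 to 89.5 (median 55.9) in wild-type. In the low end 4 wild-type libraries lay below every knockout library, and the log2 fold change was 0.71 (adjusted p = 0.566, SE 0.34). The related integrin Itgam (ENSMUSG00000030786, chromosome 7), or CD11b, had no read in knockout replicates 2 and 9 and up to 247 in the others. Its median was 139.7 over all 10 knockout libraries, and wild-type libraries ran from 3.73 to 402 (median 149). Its log2 fold change of -0.88 (adjusted p = 0.827, SE 1.03) was -0.24 without knockout replicate 2 and -0.25 in edgeR, so the size rests on libraries without reads. Of the 50-base windows of Itgam, 66.3% are shared with the readthrough gene Gm49368, and of those of Itgax 8.02% with Itgad, so reads there may be split. Cx3cr1 (ENSMUSG00000052336, chromosome 9), the fractalkine receptor of resident macrophages, was low in both groups, at 16.3 to 51.4 in knockout and 4.43 to 48.7 in wild-type (log2 fold change 0.31, adjusted p = 0.824, SE 0.35). Ccr2 (ENSMUSG00000049103, chromosome 9), the chemokine receptor of monocytes, ran from 23.1 to 224 in knockout and from 2.97 to 229 in wild-type (log2 fold change 0.76, adjusted p = 0.718, SE 0.57), and without wild-type library 18 the log2 fold change was 0.34.

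**Figure D3:**
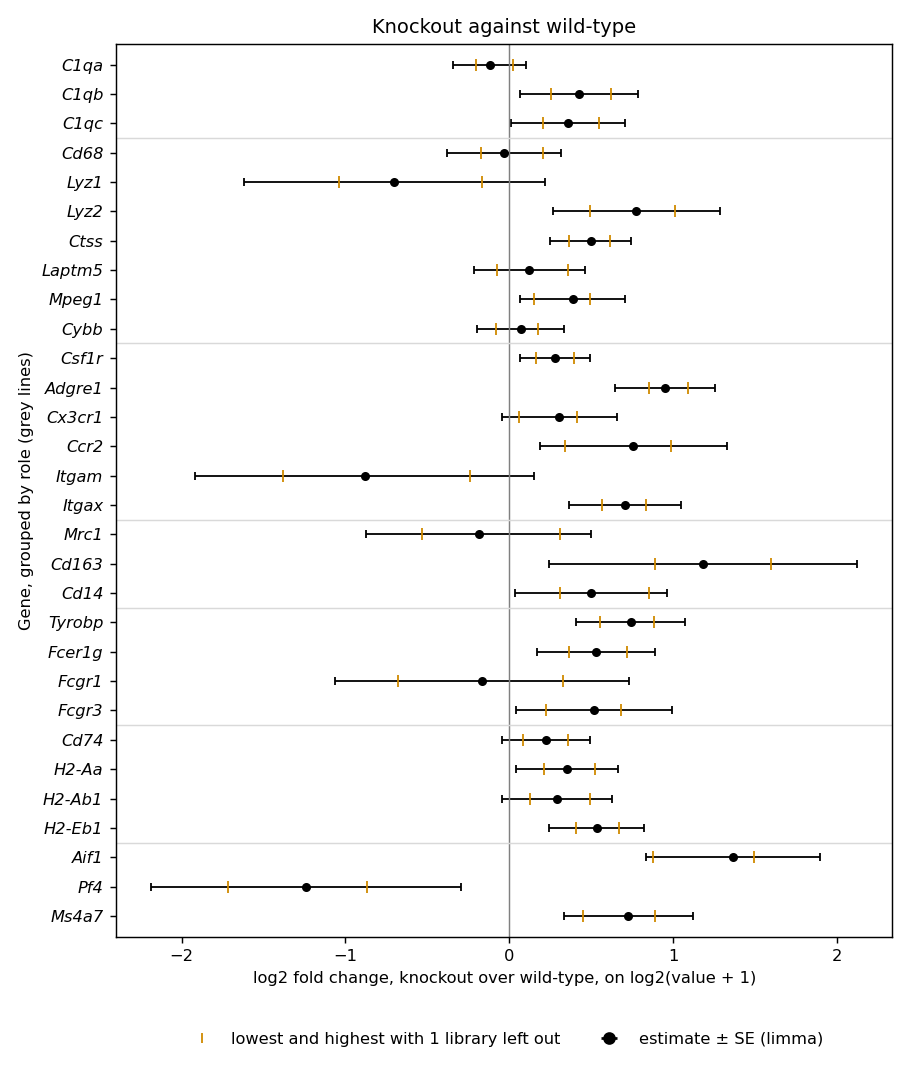
Log2 fold change of knockout over wild-type for each of the 30 genes on the log2(value + 1) scale, with limma's estimate and standard error in black and the lowest and highest estimates with 1 library left out as orange ticks. Of the 30 estimates 23 lie above 0, none passed the adjusted p, and Adgre1 has its whole leave-one-out range between 0.85 and 1.09.

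The scavenger and pattern receptors had few reads apart from Cd14, and none of the 3 passed. Cd163 (ENSMUSG00000008845, chromosome 6), the haemoglobin scavenger receptor, had no read in 2 knockout and 3 wild-type libraries and at most 82.3 in knockout and 50.1 in wild-type, for a log2 fold change of 1.18 (adjusted p = 0.735, SE 0.94). Mrc1 (ENSMUSG00000026712, chromosome 2), the mannose receptor, ran from 0 to 59.9 in knockout and from 1.87 to 81.2 in wild-type (log2 fold change -0.19, adjusted p = 0.957, SE 0.69), and without knockout replicate 7, which had no read, its log2 fold change was 0.31. Cd14 (ENSMUSG00000051439, chromosome 18), the co-receptor for bacterial lipopolysaccharide, ran from 42.7 to 241 (median 111) in knockout and from 22.4 to 688 (median 59.7) in wild-type. The 688 came from wild-type library 20, and the next wild-type value was 119.8. That library made the wild-type mean of 126 ± 199 as high as the knockout mean of 124 ± 71.5 (SD, n = 10 each). The log2 fold change of Cd14 was 0.50 (adjusted p = 0.783, SE 0.46) and 0.85 without it.

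Tyrobp (ENSMUSG00000030579, chromosome 7), the ITAM adaptor DAP12 that pairs with TREM2 and other myeloid receptors, had values of 126, 118, 69.9, 231, 84.6, 97.7, 50.9, 175, 223 and 259.9 in knockout replicates 1 to 10. The wild-type libraries 11 to 20 had 88.2, 64.8, 120.4, 129.5, 22.8, 81.2, 84.8, 46.6, 58.8 and 149. Of the knockout libraries 8 lay above the wild-type median and 4 above every wild-type library. The means were 144 ± 73.8 and 84.6 ± 39.2 (SD, n = 10 each), and the log2 fold change was 0.74 (adjusted p = 0.530, SE 0.34). Fcer1g (ENSMUSG00000058715, chromosome 1), the ITAM chain shared by activating Fc receptors, ran from 25.5 to 135 (median 64.8) and from 15.7 to 149 (median 47.5), for a log2 fold change of 0.53 (adjusted p = 0.689, SE 0.36).

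The Fc receptors themselves had larger standard errors than the adaptors Tyrobp and Fcer1g. Fcgr3 (ENSMUSG00000059498, chromosome 1), the low-affinity receptor for IgG, ran from 50.7 to 411 (median 123) in knockout and from 13.1 to 245 (median 104) in wild-type, for a log2 fold change of 0.52 (adjusted p = 0.777, SE 0.47). Of its 50-base windows 9.58% are shared with the inhibitory receptor Fcgr2b. Fcgr1 (ENSMUSG00000015947, chromosome 3), the high-affinity receptor for IgG, had no read in knockout replicates 5 and 9 and wild-type library 19, and its highest values were 157 in knockout and 54.2 in wild-type. In 4 knockout libraries Fcgr1 was above every wild-type library, whereas its log2 fold change was -0.17 (adjusted p = 0.971, SE 0.90), so the mean of the logs and the mean of the values (48.1 against 33.0) pointed opposite ways. Its sign also turned with other tools, to 0.51 in edgeR and 0.53 in DESeq2.

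The class II genes were the most abundant of the set. Per kilobase of exon (lengths from GENCODE M21), the mean normalized read count over the 20 libraries was 5285 for Cd74, 1605 for H2-Eb1, 1209 for H2-Ab1 and 632 for H2-Aa, and among the other genes only C1qa, at 744, reached that range. Ctss followed at 370.1, and Cd163 was lowest at 3.66.

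All 4 class II genes had positive log2 fold changes, and none passed. H2-Eb1 (ENSMUSG00000060586, chromosome 17), a beta chain, ran from 1437 to 7087 (median 3729) in knockout and from 1043 to 5384 (median 2198) in wild-type. In 7 of 10 knockout libraries H2-Eb1 was above the wild-type median, yet only knockout replicate 10 was above every wild-type library. The means were 3742 ± 1805 and 2499 ± 1175 (SD, n = 10 each), and the log2 fold change was 0.53 (adjusted p = 0.612, SE 0.29). H2-Aa (ENSMUSG00000036594, chromosome 17), the alpha chain, ran from 806 to 5657 (median 2784) and from 837 to 3585 (median 2079.8), for a log2 fold change of 0.35 (adjusted p = 0.771, SE 0.31). H2-Ab1 (ENSMUSG00000073421, chromosome 17), its beta chain, ran from 851 to 8286 (median 3138) and from 1122 to 5633 (median 2478), for a log2 fold change of 0.29 (adjusted p = 0.826, SE 0.34). Cd74 (ENSMUSG00000024610, chromosome 18), the invariant chain, ran from 3787 to 17386 (median 10190.1) and from 3148 to 15909 (median 8144), for a log2 fold change of 0.22 (adjusted p = 0.835, SE 0.27). For all 4 genes the highest knockout library was replicate 10 and the lowest wild-type library was 19.

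The proportion among the class II genes varied little by comparison. Cd74 made 44.5% to 55.5% of the summed normalized read count of the 4 genes in knockout (median 50.5%) and 49.4% to 62.6% in wild-type (median 51.6%), while the sum itself ran from 6945 to 38416 in knockout and from 6150 to 30412 in wild-type.

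Aif1 (ENSMUSG00000024397, chromosome 17), the actin-bundling protein IBA1 of macrophages and microglia, had the largest log2 fold change of the set. Its values were 44.7, 40.8, 44.6, 71.0, 30.8, 82.3, 24.4, 156, 68.7 and 56.1 in knockout replicates 1 to 10 and 24.0, 31.2, 24.4, 39.0, 29.3, 30.9, 46.5, 13.9, 35.5 and 0 in wild-type libraries 11 to 20. Of the knockout libraries 9 lay above the wild-type median and 5 above every wild-type library. The means were 61.9 ± 37.8 and 27.5 ± 13.1 (SD, n = 10 each), a ratio of 2.25. Its log2 fold change of 1.37 (adjusted p = 0.445, SE 0.53) was 0.87 without wild-type library 20, which had no read. Ms4a7 (ENSMUSG00000024672, chromosome 19), a membrane protein of macrophages, ran from 71.6 to 423 (median 176) in knockout and from 20.7 to 323 (median 129.5) in wild-type, with 9 of 10 knockout libraries above the wild-type median and a log2 fold change of 0.73 (adjusted p = 0.610, SE 0.39). Pf4 (ENSMUSG00000029373, chromosome 5), a chemokine of platelets and of some macrophages, had no read in 4 knockout libraries and 1 wild-type library. Its highest values, 114 in knockout replicate 10 and 145 in wild-type library 14, were in the libraries with the highest median level of the set in each group, and its log2 fold change was -1.24 (adjusted p = 0.721, SE 0.94). It was -0.47 with a pseudocount of 10 and -0.64 in both edgeR and DESeq2.

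Other genes of the same pathways were read from lists, with no gene called by limma in any of them, where 0.28% of all genes tested were called. Of 8 tested dendritic cell subset genes (12 were listed, 4 had a mean under 10) all 8 had a positive log2 fold change, with a median of 0.47. Among these, Cd209a, a lectin of monocyte-derived dendritic cells, was at 22.2 ± 20.8 and 6.59 ± 10.9 (log2 fold change 2.09, adjusted p = 0.519). Cd209a had no read in 2 knockout and 6 wild-type libraries, and it reached the mean of 10 only through its knockout values. Its positive sign therefore adds little to the count, and with a pseudocount of 10 its log2 fold change was 0.89. Zbtb46, a transcription factor of conventional dendritic cells, was at 162 ± 55.0 and 124 ± 49.97 (0.47, adjusted p = 0.683). The defining cross-presenting genes Xcr1 and Batf3 were near 0 in both groups, with means of at most 5.77. Clec9a, a lectin of the same cells, was at 31.5 and 25.1, and Flt3, a growth factor receptor of dendritic cell precursors, at 37.7 and 24.3. Naaa, a lysosomal amidase, was at 492 ± 82.1 and 405 ± 85.8, and Cd24a, a surface glycoprotein, at 868 in knockout against 811 in wild-type on average. The list thus held both genes near 0 and well detected genes, and Itgax and the class II genes are shared with macrophages.

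In the phagocytosis and lysosome list 10 of 17 tested genes were positive, with a median log2 fold change of 0.12, and the 3 with the lowest p were all lower in knockout. Lgmn, the lysosomal protease legumain, was at 1133 ± 283 and 1578 ± 259 (log2 fold change -0.50, adjusted p = 0.138, SE 0.13). Ctsz, cathepsin Z, was at 2659 ± 633 and 3356 ± 412 (-0.36, adjusted p = 0.318, SE 0.12), and Lpl, lipoprotein lipase, at 6875 ± 1694 and 9003 ± 2145 (-0.39, adjusted p = 0.441, SE 0.15). These genes are also expressed outside the macrophage lineage, and none passed the adjusted p.

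The myeloid growth factor and transcription factor list was balanced, with 10 of 17 tested genes positive and a median log2 fold change of 0.02. Csf1, the growth factor that Csf1r binds, was at 701 ± 254 and 846 ± 301 (-0.30, adjusted p = 0.694, SE 0.21). In the class II machinery and costimulation list 7 of 13 tested genes were positive, with a median of 0.02. Rfx5, a subunit of the factor that binds the X box, was at 2973 ± 746 and 3523 ± 853 (-0.24, adjusted p = 0.682, SE 0.16), opposite in sign to the 4 class II genes. The highest Rfx5 value was in wild-type library 19, the lowest library of the set, and which cells gave its reads was not tested. H2-DMb1, a chain of the peptide-loading molecule, was at 95.5 ± 47.7 and 64.5 ± 33.6 (0.69, adjusted p = 0.651, SE 0.42).

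The ITAM and Fc receptor signalling list had 10 of 16 tested genes positive and a median log2 fold change of 0.07. Clec4n, the lectin Dectin-2 that signals through Fcer1g, was at 48.0 ± 38.2 and 15.9 ± 13.03, with 5 knockout libraries above every wild-type library (log2 fold change 1.70, adjusted p = 0.595, SE 0.89). Sirpa, the inhibitory receptor for CD47, was at 9381 ± 1298 and 12088 ± 2598 (-0.35, adjusted p = 0.358, SE 0.12). Its mean over the 20 libraries was 10734, against 885 for Csf1r, and which cells gave the Sirpa reads was not tested. The 6 partners of Cybb in the NADPH oxidase list were split, 3 positive and 3 negative, with Cyba, its membrane partner, at 946 ± 834 and 460.4 ± 302 (0.87, adjusted p = 0.566, SE 0.42). Of the 8 purine and UDP receptors and related genes of myeloid cells 4 were positive. P2ry14 itself, which DESeq2 called, was among the 4 negative genes. P2ry6, the UDP receptor of macrophages, was at 245 ± 55.9 and 296 ± 77.7 (-0.26, adjusted p = 0.675, SE 0.17).

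The second question was how the 30 genes moved with each other over the 20 libraries. Of the 435 pairs 395 (90.8%) had a positive Pearson's r on the log2(value + 1) scale, with a median of 0.42, a lowest value of -0.30 for Cybb with Itgax and a highest of 0.95 for H2-Aa with H2-Ab1. In 176 pairs r was above 0.5 and in 31 above 0.8. The median was 0.47 within knockout and 0.49 within wild-type, and 0.44 with the genotype means removed, so the pattern was present within each genotype. It was 0.40 with the acinar share removed by regression and 0.36 without wild-type library 19. All these values share the same 20 libraries and their size factors, and r is given as a description.

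**Figure D4:**
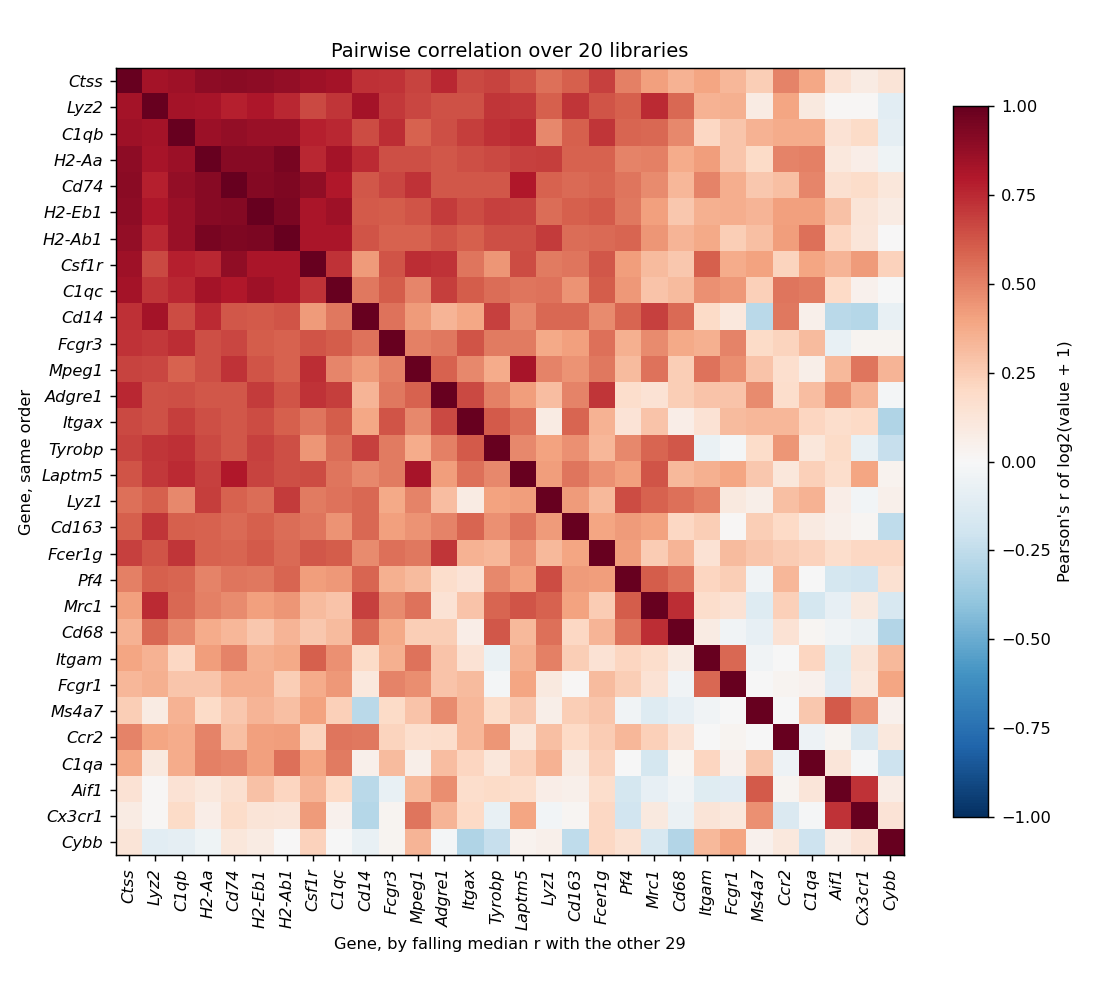
Pearson's r over the 20 libraries for each pair of the 30 genes on the log2(value + 1) scale, with genes ordered by their median r with the other 29. The dark block at the upper left joins Ctss, Lyz2, C1qb and the 4 class II genes, and Cybb, Cx3cr1, Aif1 and C1qa lie at the pale end.

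The tightest group was MHC class II, with r of 0.91 to 0.95 among its 6 pairs and a median of 0.59 with the other 26 genes. Ctss (median r 0.66 with the other 29 genes), Lyz2 (0.66), C1qb (0.64) and H2-Aa (0.64) were nearest to the rest of the set. The gene most like Ctss was Cd74, the protein its product cuts, at r = 0.90. Cybb (0.03), Cx3cr1 (0.11), Aif1 (0.14) and C1qa (0.22) were farthest. The place of C1qa rests on wild-type library 19, without which its median r was 0.35, above those of Fcgr1 (0.091), Ccr2 (0.12), Itgam (0.17), Ms4a7 (0.22) and Mrc1 (0.26). Without that library Cybb was at -0.22 and Cx3cr1 at -0.0021. Aif1 and Cx3cr1, both known as marks of resident macrophages and microglia, had r = 0.73 with each other (rho = 0.32) and low r with most of the set. That r rests on wild-type library 20, the lowest of all 20 libraries in both genes (0 for Aif1 and 4.43 for Cx3cr1), and was 0.29 without it. Cybb had a mean of 95.0, against 19.98 for Cd163, whose median r was 0.45.

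Of 12 pairs that were tested by permutation (two-sided, 100000 resamples, n = 20, adjusted over the 12), 9 passed. H2-Aa with H2-Ab1 gave r = 0.95 and rho = 0.93 (permutation test, adjusted p of r 3e-05). The unadjusted p of that r, 1e-05, is the smallest that 100000 resamples can give. Without the 2 libraries farthest from the median of H2-Aa, r was 0.93. H2-Aa with H2-Eb1 gave r = 0.91 and rho = 0.84, and H2-Ab1 with H2-Eb1 r = 0.94 and rho = 0.96. Cd74 with H2-Aa gave r = 0.91 and rho = 0.85, and the permutation p of r was the same in each of these 3 pairs. Without the 2 farthest libraries these 3 were at 0.88, 0.95 and 0.85.

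The C1q chains were not as close. C1qb with C1qc gave r = 0.75 and rho = 0.69 (permutation test, adjusted p 0.000216 and 0.00182), with r = 0.65 without knockout replicate 10 and wild-type library 14. C1qa with C1qc gave r = 0.52 and rho = 0.46 (permutation test, adjusted p 0.0285 and 0.056). That r was 0.37 without knockout replicates 2 and 5 and 0.64 without wild-type library 19, so its size depends on which libraries are kept. C1qa with C1qb gave r = 0.37 and rho = 0.48 (permutation test, adjusted p 0.132 and 0.0495), and r = 0.56 without wild-type library 19. C1qa with H2-Aa gave r = 0.50 and rho = 0.45 (permutation test, adjusted p 0.032 and 0.0588), with r = 0.80 within knockout and 0.004 within wild-type, and 0.29 without knockout replicates 2 and 5. Wild-type library 19 set the wild-type value, since without it r of C1qa with H2-Aa was 0.42 within wild-type and 0.68 over the remaining libraries. Over all libraries but that one, r of C1qa was 0.73 with Cd74 (from 0.49), 0.71 with H2-Ab1 (from 0.55) and 0.60 with H2-Eb1 (from 0.41). The difference between the genotypes was not tested.

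**Figure D5:**
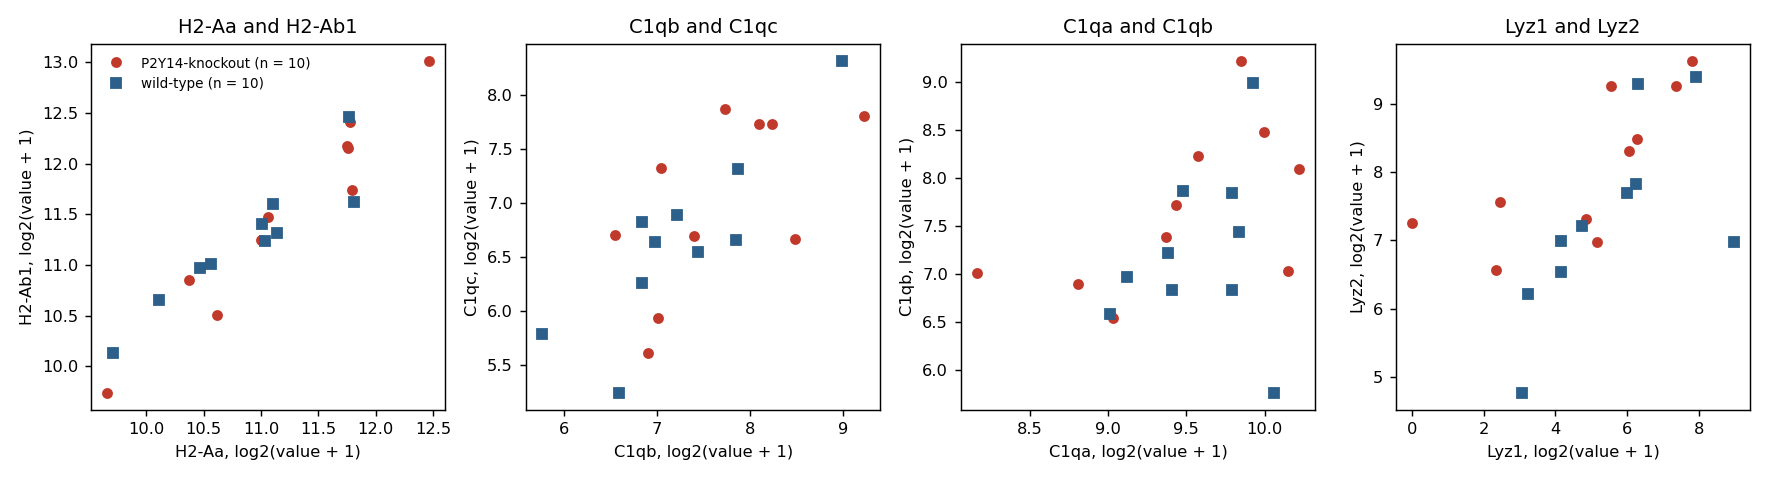
Normalized read counts of 4 pairs of genes in the 20 libraries on the log2(value + 1) scale, with knockout as red circles and wild-type as blue squares (n = 10 each). H2-Aa and H2-Ab1 lie along a line (r = 0.95), and C1qb and C1qc are looser (r = 0.75). C1qa and C1qb scatter (r = 0.37, and 0.56 without wild-type library 19). In Lyz1 and Lyz2 (r = 0.59) knockout replicate 2 and wild-type library 17 stand off the line.

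Csf1r with Adgre1 gave r = 0.72 and rho = 0.80 (permutation test, adjusted p 0.00038 and 0.000144), and r = 0.67 without knockout replicate 10 and wild-type library 19. Lyz1 with Lyz2 gave r = 0.59 and rho = 0.67 (permutation test, adjusted p 0.00994 and 0.00291), and r = 0.82 without knockout replicate 2 and wild-type library 17, the libraries with no Lyz1 read and with the most. For 2 further pairs r did not pass. Tyrobp with Fcer1g gave r = 0.33 and rho = 0.43 (permutation test, adjusted p 0.164 and 0.0665), and Itgam with Itgax r = 0.15 and rho = 0.32 (permutation test, adjusted p 0.55 and 0.17), with r = 0.50 without knockout replicates 2 and 9, the libraries with no Itgam read.

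Other cell types were read beside the set, through r between the mean standardized level of the 30 genes and that of each list over the 20 libraries. It was 0.89 for phagocytosis and lysosome genes, 0.88 for genes of all leukocytes and 0.86 for the dendritic cell subset genes. It was 0.71 for mesenchymal and 0.66 for endothelial markers, 0.71 for B cell and plasma cell markers (0.66 within knockout and 0.77 within wild-type), 0.42 for acinar markers and 0.01 for islet endocrine markers, and 0.04 for the log2 of total reads. Thus libraries high in macrophage genes were also high in genes of other cells that lie in and around islets, and their part in the result was not tested.

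Of the genes of all leukocytes 9 of 13 had a positive log2 fold change, with a median of 0.21. Their summed level ran from 2509.6 to 7026 in knockout and from 1036 to 5544 in wild-type. Cd52, a surface protein of leukocytes, was at 69.1 ± 39.5 and 37.5 ± 18.5 (0.86, adjusted p = 0.530, SE 0.39), while Ptprc, the pan-leukocyte phosphatase CD45, was at 322 in knockout against 340.1 in wild-type on average. Markers of other leukocytes were in part under the filter. Of 13 T and NK cell markers 10 had a mean under 10, among them Cd3e, Cd3d, Cd4 and Cd8a, and the list summed to 212 to 406 in knockout and 98.0 to 421 in wild-type, mostly from Lck and Cd247. Of 9 neutrophil markers 7 had a mean under 10, and their sum of 38.6 to 376 and 13.998 to 424 came mostly from Ly6g (165 ± 98.6 and 93.6 ± 98.0, log2 fold change 1.18, adjusted p = 0.521). Of 7 B and plasma cell markers 3 had a mean under 10, with sums of 23.3 to 751 and 26.1 to 604 carried by Jchain. Of 8 mast cell markers 5 had a mean under 10, with sums of 301 to 529 and 248 to 1242 carried by Kit.

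By likeness to the mean standardized level of the 30 genes over the 20 libraries, the 10 closest genes outside the set were Clic1 (r = 0.91), Olfml3, Tmsb4x, Apoe, Ddah2, C1ra, Mfge8, Mrpl46, Capg and Cygb (r = 0.89). Apoe, a lipid carrier and the only one of them in the other lists, was at 6047 on average over the 20 libraries. It had r = 0.96 within knockout and 0.83 within wild-type. Mesenchymal markers also rose with the set (r = 0.71), and which cells gave the reads of these 10 genes was not tested. Tmsb4x, an actin-binding peptide, was at 14165 and had r = 0.90. None of the 10 was called, their log2 fold changes running from 0.18 for Clic1 to 0.63 for Olfml3.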

How the data were processed

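Messenger RNA of islets was sequenced from 10 P2Y14-knockout and 10 wild-type samples with a TruSeq v2 kit, which does not mark strand, per the labels' protocols. The deposited values are a signal unit: the authors scaled each library's reads per gene by a DESeq size factor, per the file's name. The build mm9 and the tools DESeq 1.16.0, Cufflinks 1.3.0, TopHat 1.3.3, Bowtie 0.9.9 and FastQC are listed in the submitters' processing notes. The sources used here do not give how reads were counted. Dividing each column by its smallest step returned whole reads for 100% of the values checked, within 0.05 reads, which gave the depths. Knockout columns carry the labels' replicate numbers. Wild-type columns are numbered 11 to 20, which the labels do not use, so they entered by group alone.

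Names came from GENCODE M21 (GRCm38, not mm9), so no coordinates were taken for the files' genes, and promoter windows are those of RefSeq on GRCm38.p6. Genotypes were compared with limma 3.58.1 under R 4.3.3 (lmFit, eBayes with a mean trend) on log2(value + 1) with genotype as the only term, over the 17482 genes whose mean value reached 10, adjusted by Benjamini-Hochberg with a threshold of 0.05. Fold changes are shrunk by the pseudocount where a gene is low throughout, while for genes with some libraries at 0 the log-scale value can exceed that of the count models. Alternatives were pseudocounts of 0.5 and 10, quantile normalization, TMM factors, a mean of at least 100 or no filter, edgeR 4.0.16 (quasi-likelihood) and DESeq2 1.42.0 on the recovered reads, a rank sum test, covariates for acinar share and total reads, and each library left out in turn. The limma fit was also tested on simulated counts with known changes. Correlations were computed with scipy 1.17.1 (Python 3.11.15), and values for libraries with 0 reads allow up to 3 reads, which covers counting error only.

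The genes and lists were chosen with earlier results of these data known. All 30 genes are named. From the other lists the rule took up to 3 genes with the smallest p and the 2 with the highest mean, and the 10 genes most like the set. Further genes (Ptprc, Xcr1, Batf3, Clec9a, Flt3, and the T and NK cell markers Cd3e, Cd3d, Cd4 and Cd8a) and the motif GGAAGT were picked after their values or sequences were seen. Of 201 other list entries 199 were in the table, and Pax5 and Elane were not analysed here. A few list genes are not reported here.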

Additional observations from a re-analysis of the deposited data

Results flagged for a closer look

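Within each group of 10 libraries the highest and the lowest value of each gene were compared with the nearest other value. Of 60 group values checked, 14 had an end value whose gap to its neighbour was above Dixon's critical share of the whole range of the group, where chance gives about 1 in 20 for normally distributed values. All 14 were high values. Counts on this linear scale are skewed to high values, so that rate is only a guide. On the log2(value + 1) scale, an alternative chosen after seeing the data, 11 end values stood apart, 10 of them low and 1 high, and Cd14 in wild-type library 20 was the 1 that stood apart on both scales. Of the low ones 4 were in wild-type library 19 (Laptm5, Mpeg1, Itgam and Fcgr1) and 3 in wild-type library 20 (Cx3cr1, Aif1 and Ms4a7).

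Wild-type library 14 stood apart in 7 genes. Its normalized read count was 508 for C1qb (next 233), 318 for C1qc (next 158), 149 for Fcer1g (next 69.4) and 145 for Pf4 (next 59.1). In the class II genes it was 15909 for Cd74 (next 9416), 5633 for H2-Ab1 (next 3139) and 5384 for H2-Eb1 (next 3165). This library had the second-highest median level of the 30 genes over all 20 libraries.

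Knockout replicate 10, the library with the highest median level, stood apart in 3 genes, at 598 for C1qb (next 356), 359 for Cd68 (next 195) and 114 for Pf4 (next 25.3). The remaining 4 were in libraries that stood apart in a single gene each. Cd14 was 688 in wild-type library 20 (next 119.8), Lyz1 was 508 in wild-type library 17 (next 244), Fcgr3 was 411 in knockout replicate 6 (next 223) and Aif1 was 156 in knockout replicate 8 (next 82.3).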

How the results depend on the processing

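No gene of the set was called under any of the 11 alternatives or with any 1 of the 20 libraries left out. Under a mean of at least 100 only 19 of the 30 genes were tested. Over all genes tested limma called 49, edgeR 43, DESeq2 137, the rank sum test 8, and limma with a mean of at least 100 called 29. A rank sum test gives no fold change, so the difference of the group medians on the log2(value + 1) scale stands in for it. The median log2 fold change of the tested genes of the set ran from 0.33 (rank sum setting) to 0.40 (total reads as a covariate) over the other settings. With 1 library left out it ran from 0.23 to 0.50, when 21 to 25 genes were positive. Signs turned in 7 of the 30 genes, Cd68, Mrc1, Cd14, Fcgr1, C1qa, Cybb and Laptm5. By the difference of group medians Cd68 was at 0.22, Mrc1 at 0.12 and Fcgr1 at 0.0045. Cd14 was at -0.0079 in edgeR and -0.019 in DESeq2. Fcgr1 was at 0.51 in edgeR, 0.53 in DESeq2, 0.093 with a pseudocount of 10 and 0.18 with total reads as a covariate. Sizes differed too, with Ccr2 at 0.76 in limma and 0.33 in edgeR, Cx3cr1 at 0.31 and 0.15, and with a pseudocount of 10 Cd163 at 0.60 (from 1.18) and Lyz1 at -0.36 (from -0.70). The cause was not tested. With 1 library left out the log2 fold change ran from -0.21 to 0.023 for C1qa, from -0.17 to 0.21 for Cd68, from -0.079 to 0.17 for Cybb, from -0.68 to 0.33 for Fcgr1, from -0.075 to 0.36 for Laptm5 and from -0.53 to 0.31 for Mrc1. The median r of the 435 pairs ran from 0.36 to 0.46 with 1 library left out. Of the 12 tested pairs, C1qb with C1qc was at 0.61 within knockout (adjusted p = 0.085), and Lyz1 with Lyz2 at 0.67 (adjusted p = 0.072) and Csf1r with Adgre1 at 0.63 (adjusted p = 0.082) within wild-type, each by permutation over 10 libraries. The values of pairs without wild-type library 19 or 20 were chosen after seeing the data. No paired analysis was possible because the wild-type columns carry the numbers 11 to 20 and share none with the knockout columns. In libraries with 0 reads the depth allows values of up to 1.70 to 7.71, so low genes such as Pf4 and Cd163 could not be told from 0 below that.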
